A study of Sus scrofa with 8 samples.

Results

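ALB, AFP, APOA1, APOB, TTR, HNF4A, FGA, FGB and FGG are 9 genes whose products mark the liver. Their chromatin was described here in cells labelled as fibroblasts. The genes were taken by symbol from the RefSeq annotation of the pig genome build Sscrofa11.1, and all 9 were found among 19487 protein-coding genes on chromosomes 1 to 18 and X. The cells were pig embryonic fibroblasts (PEFs), taken by collagenase digestion from Large White fetuses at 35 days and kept in culture without any treatment. The methods of the study do not say whether the liver was removed or the cells were sorted, so the share of other cells is unknown. Chromatin immunoprecipitation sequencing (ChIP-seq) had been done for H3K4me3, H3K27ac and CTCF, with 2 replicates each, which gives 6 lists of peaks, that is, of intervals where the precipitated DNA exceeded an input control. All libraries came from the same untreated state, so the data held no contrast between conditions, and the labels do not say whether the 2 replicates of a mark came from separate animals or cultures. The members were instead set beside all protein-coding genes read in the same way, without a test.

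H3K4me3 is deposited around the starts of active and poised genes. H3K27ac marks active promoters and enhancers. CTCF is a zinc finger protein that binds a long, non-palindromic motif and, with cohesin, anchors chromatin loops whose ends usually carry motifs that point towards each other. The 9 genes fall into classes that hepatocytes express strongly. ALB encodes serum albumin and AFP its fetal relative alpha-fetoprotein, which lie next to each other. APOA1 and APOB encode the main proteins of high-density and low-density lipoproteins. TTR carries thyroxine and retinol-binding protein, and FGA, FGB and FGG encode the 3 chains of fibrinogen. HNF4A, a nuclear receptor, is a regulator of many of these genes.

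The lists held 37932 and 43516 H3K4me3 peaks, 74983 and 81164 H3K27ac peaks, and 40289 and 44682 CTCF peaks in replicates 1 and 2. Fold enrichment below is the ratio of ChIP to control signal at a peak's summit as deposited, and its median over a library was 9.27 and 6.16 for H3K4me3, 4.84 and 4.75 for H3K27ac, and 19.6 and 19.1 for CTCF. H3K4me3 folds were thus lower in replicate 2 over the whole genome. Of 12 fibroblast genes, among them COL1A1, COL3A1, VIM and DCN, 12 carried both histone marks within 1 kb of their starts in both replicates. So did 58.9% of protein-coding genes. The list was chosen with earlier results of these data known, so it cannot check the cell type on the labels. H3K4me3 was also called at 5 of 5 epithelial genes, and H3K27ac at 0 of these 5.

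A gene was counted as marked when a peak lay within 1 kb of its start in both replicates of a mark. Among the 9 liver genes H3K4me3 was called at 1, APOA1, against 68.9% of protein-coding genes. H3K27ac was likewise called at APOA1 only, 1 of 9 against 60.7%. CTCF was called at 0 of 9 starts, where 17.9% of protein-coding genes had it. ALB, AFP, APOB, TTR, FGA, FGB and FGG, 7 of the 9, had neither histone mark within 1 kb of the start in any of the 4 histone libraries, a state shared by 27.5% of protein-coding genes. The 9 genes lie in 6 loci, and the windows of ALB and AFP, and of FGA, FGB and FGG, overlap, so their values are not independent.

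**Figure D1:**
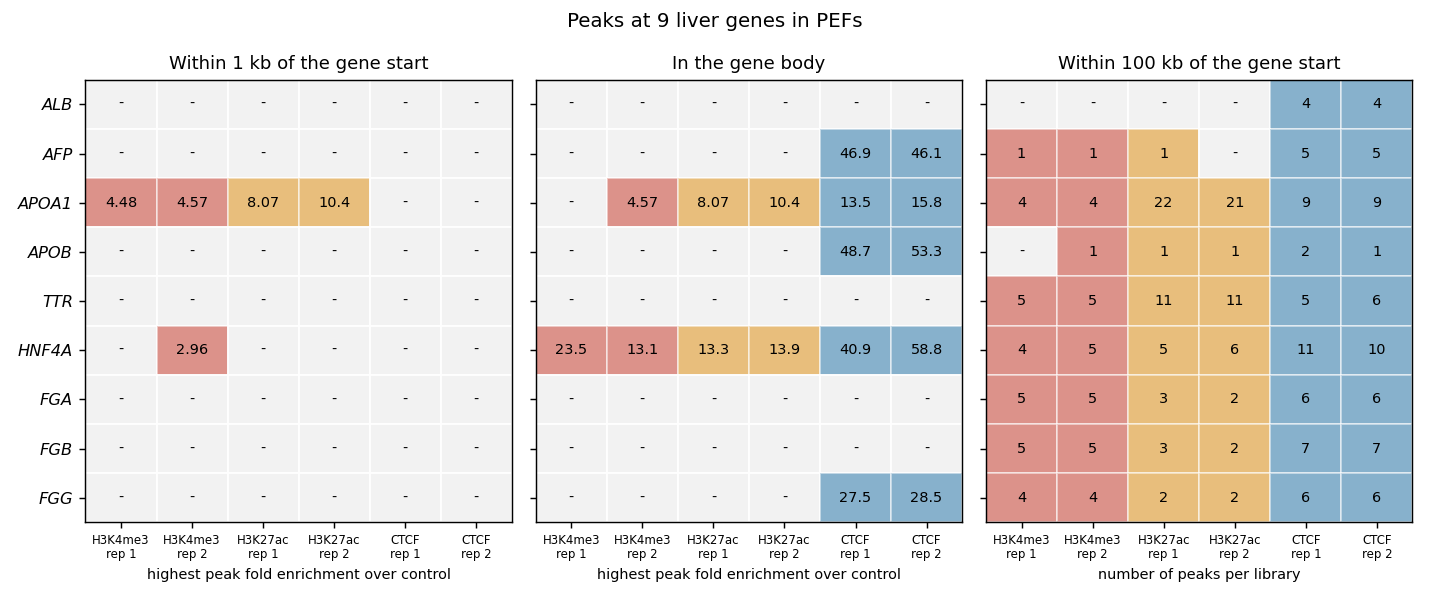
Rows are the 9 liver genes and columns the 6 libraries, with the highest fold enrichment over control of any peak within 1 kb of the gene start (left) or in the gene body (middle), and the number of peaks within 100 kb of the start (right); a dash means no peak. At the starts only APOA1 is filled for both histone marks, and HNF4A for H3K4me3 in replicate 2. CTCF is filled in the gene body of AFP, APOA1, APOB, HNF4A and FGG and within 100 kb of every member. Over all protein-coding genes, CTCF was called in both replicates in 49.8% of gene bodies and within 100 kb of 95.3% of starts.

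Promoter sequences are printed here for members with and without histone peaks at the start. The 300 bases around each start (250 before and 50 after, RefSeq, Sscrofa11.1) are shown for ALB and APOB, which had no histone peak there, and for APOA1, which had both, written along the gene's own strand with each CpG in capitals.
ALB promoter, chr8:69643177-69643476, forward strand: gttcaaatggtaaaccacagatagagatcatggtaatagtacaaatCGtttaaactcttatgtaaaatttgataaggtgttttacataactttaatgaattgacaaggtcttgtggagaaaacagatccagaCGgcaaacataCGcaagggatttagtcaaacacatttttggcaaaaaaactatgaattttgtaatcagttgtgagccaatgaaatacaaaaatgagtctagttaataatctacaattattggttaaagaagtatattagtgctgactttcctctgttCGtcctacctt
APOB promoter, chr3:117249846-117250145, forward strand: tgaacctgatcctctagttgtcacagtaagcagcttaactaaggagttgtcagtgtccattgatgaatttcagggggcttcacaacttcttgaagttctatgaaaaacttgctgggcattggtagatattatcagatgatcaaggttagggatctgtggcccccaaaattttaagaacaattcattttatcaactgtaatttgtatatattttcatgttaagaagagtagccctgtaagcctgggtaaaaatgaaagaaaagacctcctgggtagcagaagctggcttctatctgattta
APOA1 promoter, chr9:44218311-44218610, reverse strand: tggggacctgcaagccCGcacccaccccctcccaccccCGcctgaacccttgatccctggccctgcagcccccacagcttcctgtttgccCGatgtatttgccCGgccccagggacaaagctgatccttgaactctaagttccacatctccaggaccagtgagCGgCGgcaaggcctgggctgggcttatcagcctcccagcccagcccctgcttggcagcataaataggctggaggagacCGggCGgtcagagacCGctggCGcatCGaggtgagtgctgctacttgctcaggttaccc

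The ALB window held 4 CpG, that of APOB 0 and that of APOA1 11. APOB has a second annotated transcript start 25.9 kb into the gene, and its annotated start was not checked against expression data. The observed-over-expected ratio of CpG, which corrects the count for the content of C and G, was 0.527 at ALB, 0 at APOB and 0.37 at APOA1. It was 0.464 at AFP, 0.434 at FGA, 0.384 at FGG, 0.317 at FGB, 0.316 at TTR and 0.241 at HNF4A. All 9 were below the median of 0.65 over 19484 protein-coding promoters. In that genome-wide set H3K4me3 was called at 27.3% of genes with a ratio under 0.4, at 62.8% from 0.4 to 0.6 and at 94.8% from 0.6 upwards, so the mark and the CpG ratio moved together. The part of CpG content in the calls at the liver genes was not tested. Of the 6 members under 0.4 (APOA1, APOB, TTR, HNF4A, FGB and FGG), 1 had H3K4me3, and of the 3 between 0.4 and 0.6 (ALB, AFP and FGA) 0 did. Of the 12 fibroblast genes, a list chosen with earlier results of these data known, 7 had a ratio under 0.4. Both histone marks were called at 7 of these 7. Of all protein-coding genes under 0.4, 27.3% had H3K4me3 and 25.2% H3K27ac. LUM and COL3A1, which encode extracellular matrix proteins, had ratios of 0.123 and 0.174 and H3K4me3 folds of 14.7 and 28.4 for LUM and of 24.6 and 36.3 for COL3A1 in replicates 1 and 2. FN1, the fibronectin gene, with a ratio of 0.336, had H3K4me3 folds of 3.13 and 5.38.

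**Figure D2:**
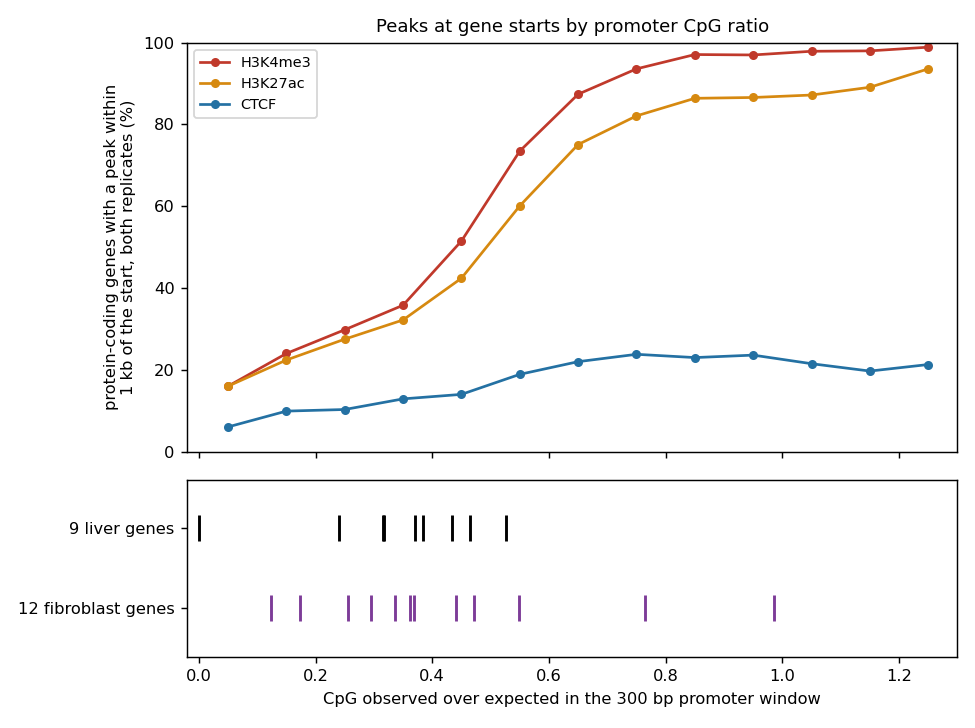
The upper panel gives, for protein-coding genes in steps of 0.1 of the CpG observed-over-expected ratio (x axis, up to 1.3), the percentage with a peak within 1 kb of the start in both replicates; the lower panel has a tick for each of the 9 liver genes and the 12 fibroblast genes. The liver genes end at 0.527, where the H3K4me3 curve climbs from 51.5% to 73.5%, and the fibroblast genes, all of which carried both histone marks, overlap them and reach 0.985.

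Short promoter elements were looked for in the same windows on both strands. The letters TATAAA, the core of a TATA box, began 47 bases before the AFP start and 41 bases before that of TTR, both along the gene, and were present in 10.8% of protein-coding promoters. CCAAT was found in the windows of ALB, APOB and FGB and in 35.3% of promoters. A match gives letters only and does not show that a factor was bound.

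ALB was the member furthest from any histone peak. No H3K4me3 or H3K27ac peak lay within 100 kb of its start in any library, and the nearest peak of either mark was 110 kb away in each of the 4 libraries. For H3K4me3, 5.36% of protein-coding genes were as far from a peak or farther, and for H3K27ac 6.97%. AFP, which starts 34.3 kb downstream of ALB on the same strand, had its nearest H3K4me3 peak at 82.3 and 82.2 kb and its nearest H3K27ac peak at 96.4 and 111 kb in replicates 1 and 2. Both starts sat in the same interval of 227 kb without a histone peak in any library (chr8:69533285-69759892), and 7.42% of protein-coding starts lay in one as long or longer. AFM, the albumin family gene next to AFP, had neither mark at its start.

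CTCF remained in that interval. The locus from 100 kb before ALB to 100 kb after AFP was 255 kb long and reached beyond the interval on the AFP side. The locus held 7 CTCF sites found in both replicates, against a genome average of 4.04 for this length. The 4 of them within 100 kb of the ALB start lay inside the interval. The others were at its edge or beyond it, on the AFP side. No average was computed for the length of the interval. H3K4me3 had 1 shared site there (average 3.53) and H3K27ac 2 (average 6.57). The lone H3K4me3 site, 82.4 kb beyond the AFP start inside LOC102166306, had folds of 3.87 and 5.31 and lay over a CTCF site. Both H3K27ac sites were in introns of RASSF6, with folds of 7.03 and 9.84 and of 3.88 and 4.46. The histone peaks of the locus were therefore all on its far side, downstream of AFM. With flanks of 50 kb in place of 100 kb the locus held 0 H3K4me3, 0 H3K27ac and 2 CTCF sites. The genome average falls in proportion to length, and none was computed for that shorter length. A CTCF count above the average was thus shown for the 100 kb flanks only, and not for the closer surroundings of the genes.

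**Figure D3:**
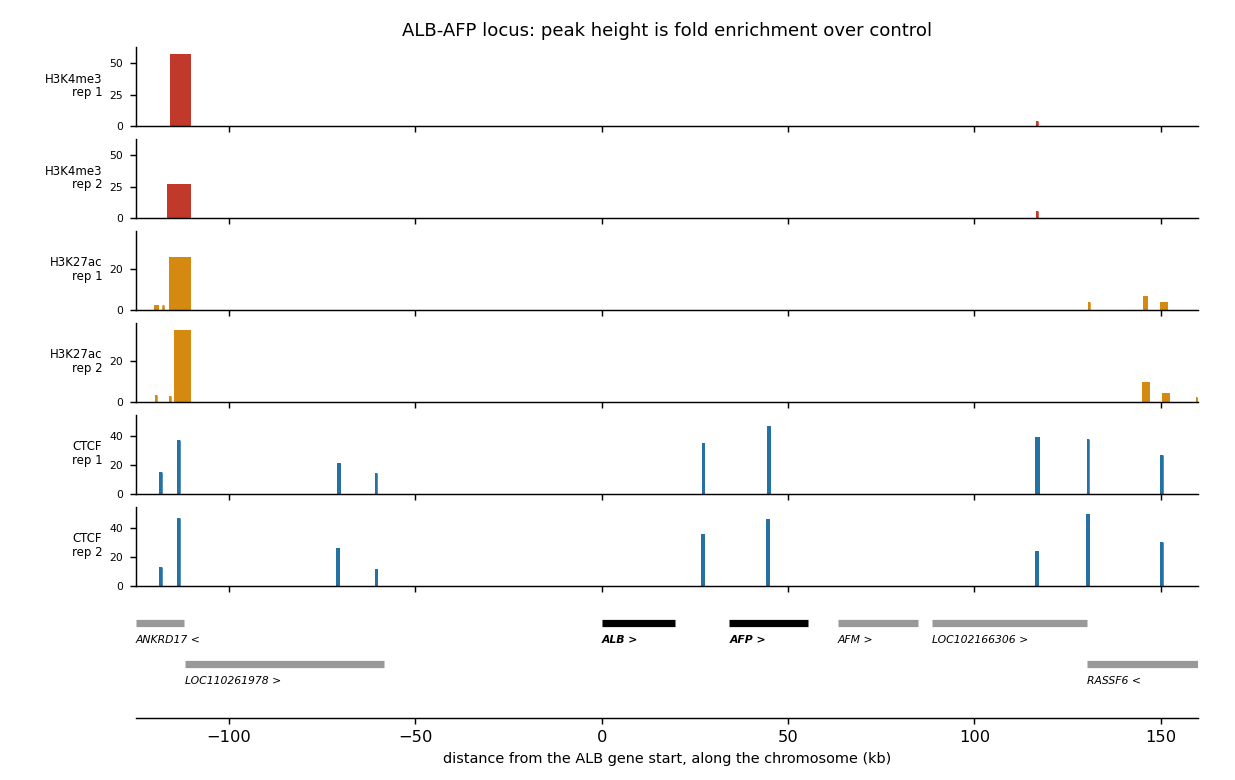
Each of the 6 upper tracks is a library, with peaks drawn at their position relative to the ALB start (x axis, kb along the chromosome) and a height equal to fold enrichment over control; the lowest track shows the genes, with arrowheads for strand. Between the peak 110 kb before ALB and the small H3K4me3 peak 117 kb after it only CTCF peaks are present, 4 in each replicate.

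The CTCF sites nearest to the pair were strong ones. One lay between the genes, 7.05 kb before the AFP start, with folds of 35.1 and 35.5. The other was in an AFP intron 10.4 kb into the gene, with folds of 46.9 and 46.1, higher than 92.7% and 89% of CTCF peaks in its library. Upstream of ALB, sites at 70.6 and 60.5 kb had folds of 21.5 and 26.3 and of 14.2 and 11.9. Each site carried a CTCF motif within 50 bp of a summit, and the motifs are printed from the strand they were read on, with capitals where the base equals the most frequent one of a matrix built from the 1000 strongest shared sites on other chromosomes (TGGCCACTAGGGGGCGCTA).
70.6 kb upstream of ALB, chr8:69572792-69572810, forward: gcaCCACTAGatGGCaacA
60.5 kb upstream of ALB, chr8:69582973-69582991, forward: gcaaCACgAGGtGGCaCTc
7.05 kb upstream of AFP, chr8:69670615-69670633, reverse: aaGaCACcAGaGGGCGCgc
AFP intron, chr8:69688108-69688126, reverse: aaaCCtCTAGaGGGCagTc
LOC102166306 intron, chr8:69760328-69760346, reverse: cGaCCAgTAGaGGGCagac
RASSF6 exon, chr8:69773920-69773938, forward: TtGtCAgTAGaGGGCGCTg
RASSF6 intron, chr8:69793696-69793714, forward: TGcCCACcAGGGGGCatag

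Along the chromosome the 2 motifs before ALB pointed forward and the next 3 pointed in reverse. The ALB start therefore lay between motifs facing each other, 60.4 kb before it and 27.2 kb after it, an arrangement found around 29.5% of protein-coding starts. The AFP start lay between 2 reverse motifs 17.5 kb apart, and 45.9% of starts were flanked by motifs on the same strand.

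The 3 fibrinogen genes lie on the same chromosome in the order FGG, FGA and FGB, with the FGB start 54.4 kb beyond that of FGG and FGB on the opposite strand. None of the 3 had an H3K4me3 or H3K27ac peak in its gene body in any library, and all 3 starts shared a histone-free interval of 68 kb, as long as or shorter than the interval around 15.2% of protein-coding starts. The interval was closed on either side by peaks of unlike strength. On the FGG side an H3K4me3 peak 7.46 and 7.38 kb from the start had folds of 3.96 and 3.88, and an H3K27ac peak next to it had folds of 3.07 and 4.01. On the FGB side stood the promoter of PLRG1, a spliceosome component, whose start is 7.52 kb from that of FGB. Its H3K4me3 folds were 54 and 37.9 and its H3K27ac folds 16.3 and 20.2, so a strongly marked promoter and the unmarked FGB start were direct neighbours.

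Over the fibrinogen locus of 254 kb, from 100 kb before FGG to 100 kb after FGB, 5 H3K4me3 sites were shared by the replicates (genome average for this length 3.51), 2 H3K27ac sites (average 6.54) and 7 CTCF sites (average 4.03). This locus, unlike that of ALB and AFP, was therefore low for H3K27ac but not for H3K4me3. Of the 5 H3K4me3 sites, those at PLRG1 and at the start of the cadherin gene DCHS2 were strong, the latter with folds of 47.8 and 26.2 and an H3K27ac peak (fold 3.29) in replicate 1 only. The other 3 were upstream of FGG and had folds between 3.21 and 7.1. When peaks had to reach a −log10 q-value of 5, where q is the p-value of the peak caller corrected for multiple testing, 3 H3K4me3 sites and 1 H3K27ac site were left.

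**Figure D4:**
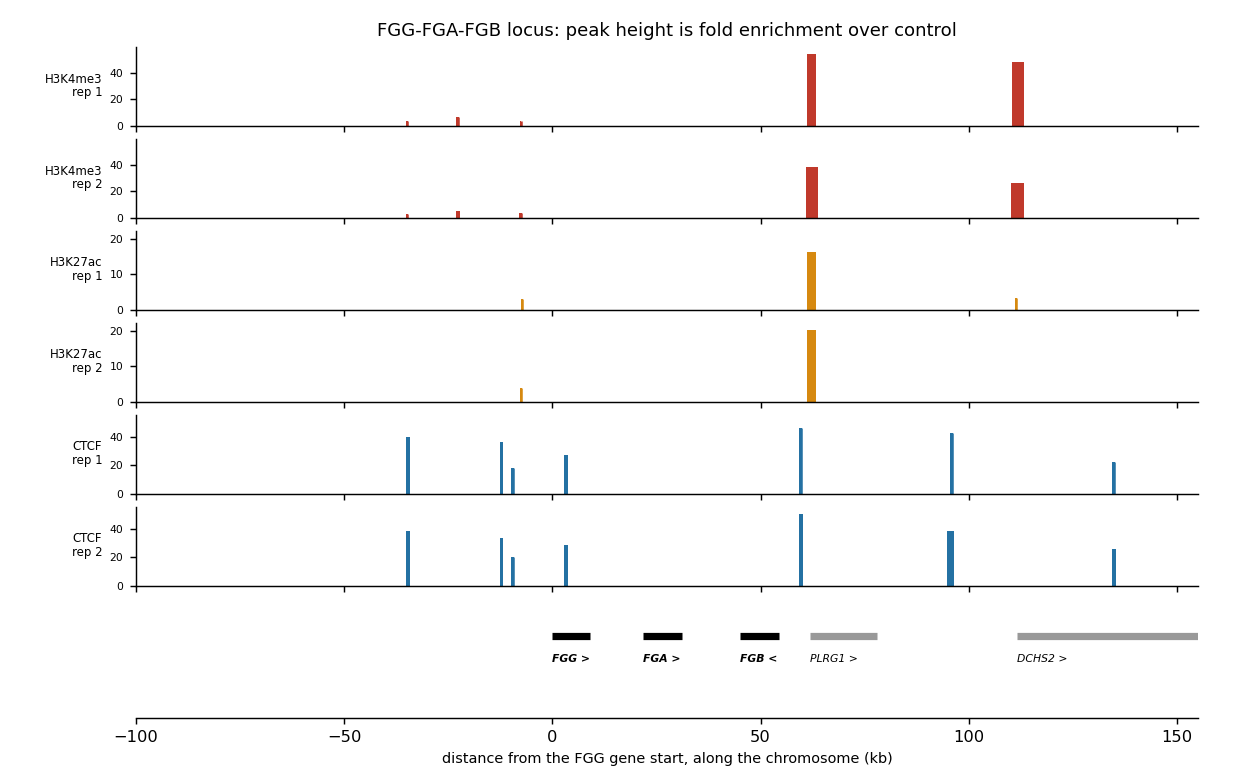
The tracks are drawn as for albumin, with the position relative to the FGG start on the x axis (kb) and fold enrichment over control as peak height in each of the 6 libraries. Between the weak histone peaks about 7 kb before FGG and the tall PLRG1 peaks only CTCF peaks are seen, 1 within FGG and 1 between FGB and PLRG1 in each replicate.

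CTCF was bound inside FGG and next to FGB. The site in an FGG intron, 3.32 kb into the gene, had folds of 27.5 and 28.5, and it was also the nearest shared site to FGA, 18.5 kb before its start. The site 5.31 kb upstream of FGB had folds of 46.3 and 50.4, above 92.3% and 92.1% of its library's CTCF peaks, and it separated FGB from the PLRG1 promoter. Motifs were found at all 7 sites of the locus, and the pair around FGA and FGB is printed with the capitals as above.
FGG intron, chr8:74556341-74556359, forward: catCCtgcAGGGGGCGCTc
5.31 kb upstream of FGB, chr8:74612764-74612782, reverse: TGagCAgTAGGGGtCaCTg

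These 2 motifs were 56.4 kb apart and faced each other, with FGA and FGB between them and PLRG1 outside. The FGG start lay instead between 2 forward motifs 12.9 kb apart. Among the 9 members, ALB, HNF4A, FGA and FGB, 4 in all, lay between facing motifs, the other 5 between motifs on the same strand, and 0 between motifs facing away from each other, which flanked 24.6% of protein-coding starts. Because FGA and FGB have the same pair of motifs, these counts rest on fewer arrangements than genes.

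APOA1 was the exception at its start. The H3K4me3 peak there was narrow and low, 400 and 718 bp wide with folds of 4.48 and 4.57, which placed it at the 25.2 and 36.1 percentile of its library's peaks. In replicate 1 it began 0.134 kb upstream of the start and in replicate 2 it covered it. H3K27ac covered the start in both replicates, with folds of 8.07 and 10.4 at the 70.6 and 77.8 percentile. The H3K27ac peak was thus high for its mark where the H3K4me3 peak was low, and both had their summits upstream of the gene, 0.349 and 0.38 kb away for H3K27ac and 0.388 and 0.307 kb away for H3K4me3.

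The surroundings of APOA1 were uneven. Within 100 kb there were 22 and 21 H3K27ac peaks in the 2 replicates, more than around 92.5% of protein-coding genes. Of 18 shared H3K27ac sites 13 were on the upstream side, where the 3′ end of SIK3, a salt-inducible kinase gene, lies 4.87 kb away and its body fills the rest of the window. The tallest of these, 52.2 kb upstream in a SIK3 intron, had folds of 18.2 and 20. On the downstream side the other genes of the apolipoprotein cluster, APOC3, APOA4 and APOA5, had neither histone mark within 1 kb of their starts, whereas BUD13, a splicing factor gene 53 kb away, was marked (H3K4me3 folds 56.1 and 20.6). A peak of similar height lay in ZPR1, 42 and 42.2 kb from APOA1, with H3K4me3 folds of 50.5 and 18.4 and H3K27ac folds of 9.93 and 13.4, just outside the 1 kb window of the annotated ZPR1 start. Neighbouring H3K27ac and the peak at the APOA1 start were present together, and whether they are related was not tested.

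CTCF lay inside APOA1 itself. A peak over an exon 1.48 kb from the start, near the end of this gene of 1.88 kb, had folds of 13.5 and 15.8. It was below the middle of its library, at the 36.7 and 44.3 percentile, and its motif pointed in reverse, along the direction of the gene.
APOA1 exon, chr9:44216899-44216917, reverse: ccGCCAgaAGatGGCGCcg

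HNF4A was the member with the largest number of shared CTCF sites within 100 kb, 10, and the only one with H3K4me3 in its gene body in both replicates, against 76.9% of protein-coding genes. At its annotated start H3K4me3 was found in replicate 2 only, with a fold of 2.96 and a −log10 q-value of 2.48, and H3K27ac in neither replicate. The start of its remaining transcripts lies 37.1 kb downstream, and no histone peak was within 1 kb of it in any library: H3K4me3 was 12.4 kb away in both replicates and H3K27ac 5.66 and 5 kb. Apart from that weak replicate 2 peak, the histone peaks within HNF4A were therefore away from its annotated starts.

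The nearest shared CTCF site to the HNF4A start lay 18.7 kb into the gene, with folds of 12.2 and 13.4. Farther inside the gene all 3 marks met at one intronic position about 24.4 kb from the start. H3K4me3 had folds of 23.5 and 13.1 there, H3K27ac 6.82 and 11, and CTCF 40.9 and 58.8. A second, broader H3K27ac peak 29.9 and 29.8 kb from the start, of 2649 and 3167 bp, had folds of 13.3 and 13.9 with a weak CTCF peak at its edge (7.29 and 5.31). This intron also belongs to LOC102159476, a long non-coding RNA gene on the opposite strand, whose own start, 32.9 kb from that of HNF4A, was within 1 kb of this broad H3K27ac peak in replicate 2 but not in replicate 1, and had no H3K4me3 peak.
HNF4A intron, chr17:46807933-46807951, forward: TGaCCACTAGGaGGaGCcc

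**Figure D5:**
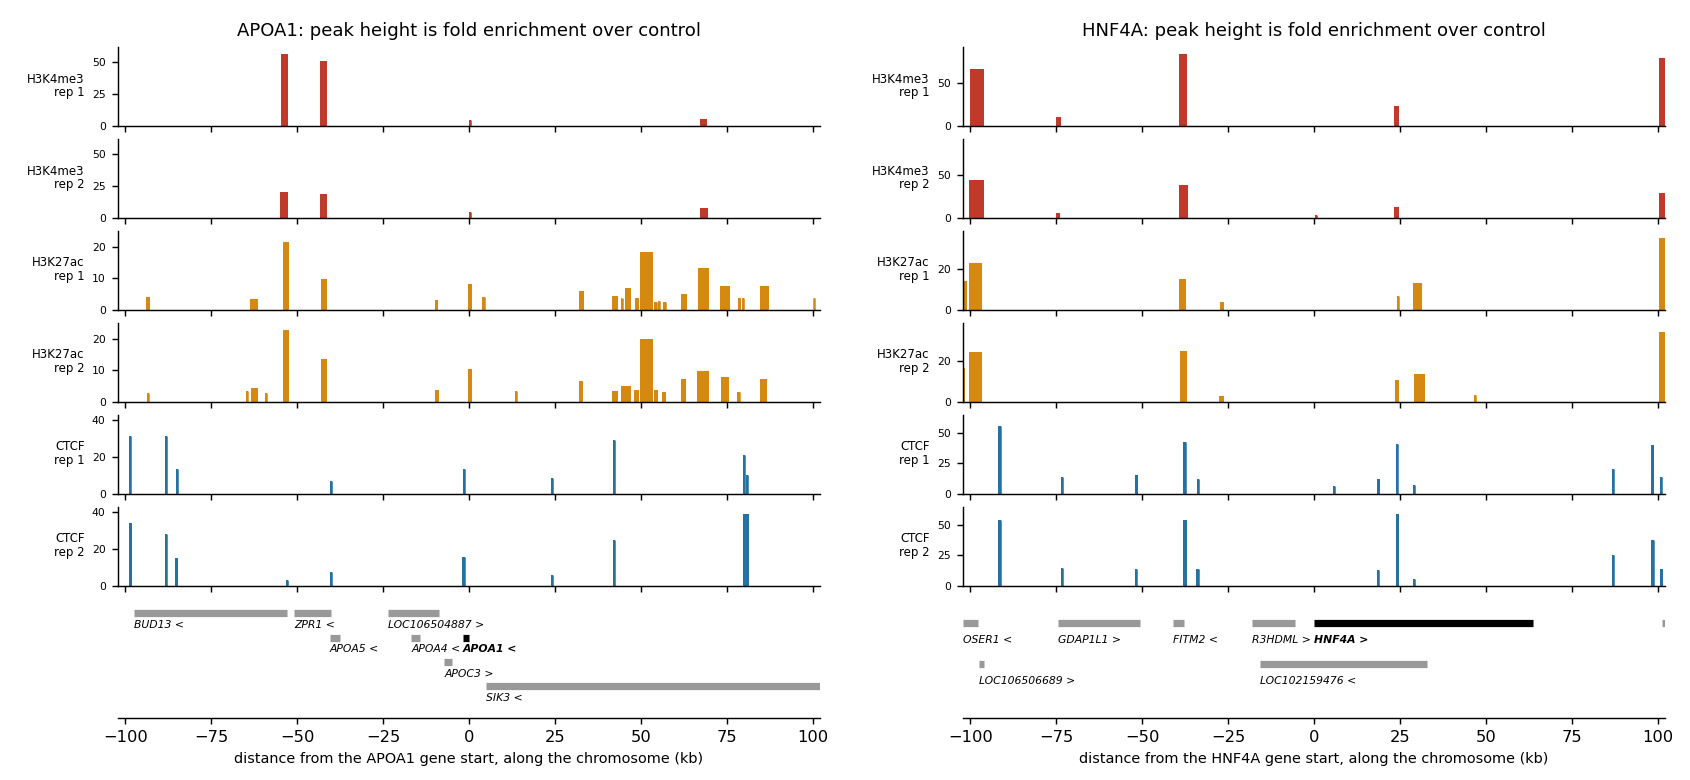
The 6 libraries are drawn around APOA1 (left) and HNF4A (right), with distance from the gene start along the chromosome on the x axis (kb) and fold enrichment over control as peak height. At APOA1 the histone peaks at 0 stand between the BUD13 and ZPR1 peaks and the row of H3K27ac peaks in SIK3. Of the peaks at 0, that of H3K4me3 is small beside those of BUD13 and ZPR1. At HNF4A the tallest peaks inside the gene are about 24 kb from its start in the H3K4me3 and CTCF tracks.

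Upstream of HNF4A, 4 genes carried H3K4me3 at their starts. FITM2, involved in lipid droplet formation, 37.9 kb away, had folds of 83.3 and 37.7. OSER1 and LOC106506689, which start next to each other on opposite strands, shared a peak of 66.3 and 43.5. GDAP1L1 had H3K4me3 (10.6 and 5.66) without H3K27ac. R3HDML, the nearest upstream gene at 18.1 kb, had neither mark. The histone-free interval around the HNF4A start was 26.6 kb long and ended at the weak replicate 2 peak 0.396 kb into the gene, and 22.3% of protein-coding starts lay in one as long or longer.

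APOB came next to ALB and AFP in the length of its unmarked surroundings. Its start lay in a histone-free interval of 137 kb, and 10.4% of protein-coding starts had one as long or longer. The nearest H3K4me3 peak was 213 kb away in replicate 1 and 33.7 kb in replicate 2, and the latter was close to the q-value limit of the lists, with a fold of 2.32 and a −log10 q-value of 1.47. H3K27ac was called once within 100 kb, 35 kb upstream in both replicates, with folds of 3.93 and 3.45. CTCF was also scarce, with 2 and 1 peaks within 100 kb, and 10.5% of protein-coding genes had as few or fewer. The peak found in both replicates was strong, with folds of 48.7 and 53.3, and lay in an APOB intron 26.9 kb from the start. It was 0.626 and 0.627 kb from the start of a second annotated APOB transcript 25.9 kb into the gene. From that second start the nearest H3K4me3 peak was 187 and 59.6 kb away and the nearest H3K27ac peak 60.8 and 60.9 kb. The motif of the CTCF peak pointed against the direction of the gene.
APOB intron, chr3:117277019-117277037, reverse: TGaCCACaAGatGGCagTg

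TTR stood closer to marked chromatin. Its nearest H3K27ac peak was intergenic, 11.9 kb upstream in both replicates, with folds of 9.64 and 8.61, at the 75.7 and 73.1 percentile of the libraries. A weak H3K4me3 peak overlapped it, with folds of 3.82 and 2.99. The interval without histone peaks around the TTR start was 46.3 kb long (18% of protein-coding starts had one as long or longer), and TTR, of 7.64 kb, had no peak of any mark within the gene. Within 100 kb 11 H3K27ac peaks were found in each replicate, 5 of the 8 shared sites on the side of B4GALT6, a galactosyltransferase gene. The promoters of B4GALT6 (H3K4me3 57.7 and 17.3) and of DSG2, which encodes a desmosomal cadherin (42.9 and 23.9), were marked, 96.9 and 96.1 kb from TTR. CTCF was nearest 20.5 kb upstream, with folds of 10.1 and 17.5, and strongest in a DSG2 intron 87 kb upstream, with folds of 61.7 and 76.5.

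Distances to the nearest peak were summarised over the 9 genes. Taking the mean distance of the 2 replicates for each gene, the median over the members was 11.8 kb to the nearest H3K4me3 peak and 23.9 kb to the nearest H3K27ac peak, where the median of protein-coding genes was 0 for both. For CTCF it was 11.9 kb, against 9.72 kb. This is the value of HNF4A, with CTCF at 5.62 kb in replicate 1 and 18.3 kb in replicate 2. On replicate 1 alone the CTCF median was 6.63 kb against 10.1 kb, and on replicate 2 alone 18.1 kb against 8.37 kb. Whether the members lay nearer to or farther from CTCF thus depended on the replicate. The H3K4me3 median is the value of HNF4A and rests on its weak replicate 2 peak: on replicate 1 alone it was 23.3 kb, beside 24.2 kb for H3K27ac. In the gene bodies H3K27ac was called at 2 members, APOA1 and HNF4A (background 70.6%), and CTCF at 5, AFP, APOA1, APOB, HNF4A and FGG (background 49.8%). Within 100 kb H3K4me3 was called at 7 of 9 (93.8%), H3K27ac at 7 of 9 (91.8%) and CTCF at 9 of 9 (95.3%). The members without H3K4me3 there were ALB and APOB, and those without H3K27ac were ALB and AFP.

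In all, 37 CTCF sites shared by the replicates lay within 100 kb of a member start, and 7 of them in an intron or exon of a member. A motif was found at 33, or 89.2%, close to the 88.7% of all 37874 shared sites, with 18 on the forward and 15 on the reverse strand. Neither histone mark overlapped 29 of the 37 sites in both replicates, against 68.0% of all shared sites. H3K4me3 overlapped 5 (background 21.0%) and H3K27ac 6 (background 26.4%). The mean fold of the 2 replicates ran from 6.3 to 69.1 with a median of 28, against 22.3 for all shared sites, and 23 of 37 were above that value. The share with a motif and the median fold at these sites were thus not below those of all CTCF sites, and no test was made.

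Some genes near the members were marked. Of 22 other annotated genes starting within 100 kb of a member, 10 were called for H3K4me3 at the start and 8 of the 10 for H3K27ac, where 60.0% and 54.0% of all 25757 annotated genes were called. The 10 were BUD13, LOC110261189, DSG2, B4GALT6, OSER1, LOC106506689, GDAP1L1, FITM2, PLRG1 and DCHS2, and GDAP1L1 and DCHS2 were those without H3K27ac. LOC110261189 shares its promoter peak with DSG2.

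A further 56 liver genes were read in the same way, as 57 gene records because TF, which encodes transferrin, has 2. H3K4me3 was called at 16 starts (68.9% of protein-coding genes), H3K27ac at 8 (60.7%) and both at 7 (58.9%). The counts depended on the window: with 5 kb they were 25 for H3K4me3 and 22 for H3K27ac, and with summits in place of whole peaks 9 and 3. Among plasma proteins H3K4me3 was called at 3 of 23 (1 TF record, RBP4 and C3) and H3K27ac at 2 (GC and RBP4). Among 7 other apolipoproteins both marks were called at 2, APOE and APOM, with H3K4me3 folds of 10.4 and 4.86 for APOE and of 54.7 and 37.6 for APOM. Of 14 genes of liver metabolism 2 had H3K4me3, FAH of tyrosine breakdown (50.8 and 27.3) and ASGR2, a subunit of the asialoglycoprotein receptor (3.33 and 4.27).

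Among 13 liver transcription factors H3K4me3 was called at 9, a share near the 68.9% of protein-coding genes, among them FOXA1, FOXA2, FOXA3, ONECUT1, CEBPA and CEBPB. H3K27ac was called at 3 of these, FOXA3, CEBPA and CEBPB. The starts of FOXA2, a pioneer factor of endoderm, and of ONECUT1 had H3K4me3 folds of 26 and 10.9 and of 35.2 and 16.3 with no H3K27ac peak in either replicate. Over the whole genome 9.99% of protein-coding genes had H3K4me3 but not H3K27ac called at the start. The CpG ratio moved with the class here as well: of the 57 records, 14 had a ratio of 0.6 or more and 12 of these had H3K4me3, whereas 33 were under 0.4 and 2 of these had it. As before, its part in the calls was not tested.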

How the data were processed

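Untreated PEFs were profiled by ChIP-seq for 2 histone marks and CTCF in 2 replicates each, with inputs whose reads are not analysed here. Per the labels and the methods of the study, the authors mapped paired-end reads with bowtie2 to Sscrofa11.1, kept uniquely mapped pairs, removed duplicates and called narrow peaks per library with MACS2; versions are not given in the sources used here. The stated q-value was 0.01, whereas the lists held peaks with q-values up to 0.0499. The authors also merged the peaks of replicates at an irreproducible discovery rate threshold of 0.01. That step was not repeated here, and the lists of single libraries were compared by overlap instead. The deposited values are the fold (a ratio of ChIP to control signal at the summit), −log10 of each peak's p-value and of its q-value, and a score, which was left unused. Peak lists carry no read counts, so depth is unknown and a missing peak means only that none was called.

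Gene starts came from the RefSeq annotation of Sscrofa11.1, whose sequence names matched the lists. A gene was called where a peak lay within 1 kb of its start, in its body, or within 100 kb of its start, by at least 1 bp and in both replicates. Peaks of both replicates overlapping by 1 bp or more were merged into shared sites. A 19 bp CTCF matrix was counted from summits of the 1000 strongest shared sites on chromosomes without members and searched within 50 bp of summits with a match threshold of 1e-04 against base composition. Python 3.11.15, numpy 2.4.6, pandas 2.3.3 and matplotlib 3.10.9 were used, and the functions were tested on simulated data. There is one condition, so no test was run. Alternatives were 1 replicate, either replicate, stricter q-values, 5 kb and 50 kb windows, summits, all transcript starts, 50% overlap and other motif settings. The members and all gene lists were chosen with earlier results of these data known. Set to be named were the 9 members, neighbours with H3K4me3 at the start, listed liver genes with H3K4me3, the CTCF sites of both multi-gene loci and the nearest site to each member. Some of the listed liver genes and of the CTCF sites of the fibrinogen locus are not reported singly here. SIK3, ZPR1, RASSF6, AFM, APOC3, APOA4, APOA5, R3HDML, LOC102159476, LOC102166306, GC and the fibroblast examples were added after their values were seen.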

Additional observations from a re-analysis of the deposited data

How the results depend on the processing

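Of 145 alternative values for 21 results, 125 stayed within 1.5 times the value reported, or within the spread of the replicates for distances, and 20 did not. That allowance for distances comes from the replicates themselves, so it cannot judge a value from a single replicate. The median distance to CTCF was 6.63 kb on replicate 1 and 18.1 kb on replicate 2, beside 11.9 kb. Both were counted among the 125. Leaving out 1 replicate gave 1 to 2 members with H3K4me3 at the start, 1 to 2 with H3K4me3 in the gene body, and a median distance to H3K4me3 of 11.2 to 23.3 kb. A peak in either replicate gave 2 members with H3K4me3 at the start (APOA1 and HNF4A) and 2 in the body. With windows of 5 kb, 3 members had CTCF near the start, 25 other liver genes H3K4me3 and 22 H3K27ac. All transcript starts gave 1 member with CTCF (APOB) and a median H3K27ac distance of 10.8 kb. Summits in place of whole peaks gave 1 member with H3K27ac in the body, and 9 and 3 other liver genes with H3K4me3 and H3K27ac. With 50 kb flanks the ALB-AFP locus held 0 H3K4me3, 0 H3K27ac and 2 CTCF sites. At a −log10 q-value of at least 5 the fibrinogen locus held 3 H3K4me3 and 1 H3K27ac sites, and the median distances were 34.2 kb for H3K4me3 and 34.1 kb for H3K27ac. These shifts follow from the windows and peaks that each alternative admits. No paired analysis was possible because the results come from no test and the cells had 1 condition. With 2 replicates per mark and no read counts, weak binding below the peak caller's limit was not detectable.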

Other observations

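Markers of other cell types, read at their starts as the liver genes were, differed in which histone mark they carried. The 5 epithelial genes EPCAM, CDH1, KRT8, KRT18 and KRT19 had H3K4me3 in both replicates at 5 of 5 and H3K27ac at 0 of 5. Their H3K4me3 folds ran from 42.7 and 20.6 at EPCAM to 7.65 and 3.94 at KRT8. Of all protein-coding genes 68.9% were called for H3K4me3, 60.7% for H3K27ac and 9.99% for H3K4me3 without H3K27ac. With 3 to 5 genes in a class these counts are only descriptive. Of 3 endothelial genes KDR had H3K4me3 (25.4 and 13.3) and none had H3K27ac, and PECAM1 and CDH5 had neither mark. Of the 3 blood genes PTPRC, SPI1 and GATA1 none had H3K4me3, and SPI1 had H3K27ac with folds of 12.4 and 17. GC, the vitamin D-binding protein gene of the albumin family, had H3K27ac at its start as well (12.4 and 12.7), with H3K4me3 in replicate 2 only (3.78) and CTCF in both replicates (8.24 and 6.75). Its 300 bp promoter window had a CpG ratio of 0.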
